A study of Mus musculus with 5 samples.

Results

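The 6 Iroquois genes (Irx1 to Irx6) of the mouse were followed in a table of 8038 genomic regions that the authors called from Pou4f1 CUT&Tag data on embryonic retina. Every region that overlapped the body of an Iroquois gene or lay within 100 kb of it was taken, which gave 15 regions of the 8038. Of these, 9 belonged to the cluster of Irx1, Irx2 and Irx4 on chromosome 13, and 6 to the cluster of Irx3, Irx5 and Irx6 on chromosome 8. All positions are on GRCm38/mm10, and genes were taken from GENCODE M21.

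CUT&Tag uses an antibody to tether a transposase to chromatin, so that DNA near the bound protein is cut and tagged for sequencing. The retinas came from wild-type embryos of a mixed C57BL6 and 129 background at E16.5, and 4 were pooled for each sample. The rabbit anti-Pou4f1 antibody gave 2 libraries and rabbit IgG, the negative control, gave the other 2. An H3K9AC library was not analysed here. The cells were dissociated from whole retina, so signal from more Pou4f1-bound cells and from more binding per cell cannot be told apart. The table holds no expression values, and the tissue was not checked against marker genes.

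Iroquois proteins are homeodomain transcription factors of the TALE class, named for extra residues between helices of the homeodomain. In mammals their genes sit in a pair of clusters that arose by duplication, with long stretches between the genes that hold shared distant enhancers. Iroquois genes are expressed in subsets of retinal neurons, ganglion cells and bipolar cells among them. Pou4f1 (Brn3a) is a POU-homeodomain factor of retinal ganglion cells, the neurons that send axons from the eye to the brain.

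The deposited values are a signal for each region and library, here called signal units. Over all regions the Pou4f1 libraries had medians of 184 (replicate 1) and 155 (replicate 2). The IgG libraries are a column named IgG and one named Negative8, which was taken as IgG, and they had medians of 4.78 and 7.96. Each value times the region length was a whole multiple of a factor of its library in 100% of cases at a tolerance of 0.05, and the multiple counts covered bases. The commonest amount above 0 in both IgG libraries was 160 covered bases, taken here as the equivalent of 1 read pair. On that scale the median region held 24.0 and 15.5 pairs in the Pou4f1 libraries and 0.469 and 0.5 in the IgG libraries, so the median IgG value was under 1 pair, and 46.2% and 43.2% of the IgG values were 0. How many reads each library held is not stated in the sources used here.

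Regions were found at 5 of the 6 genes. Irx4 had 5, Irx5 had 4, Irx1, Irx2 and Irx6 had 2 each, and Irx3 had 0. Over 21755 protein-coding genes the median was 1 region within 100 kb, 34.0% of genes had 0 and 9.72% had 4 or more. The Iroquois genes have few neighbours, with 0 other coding genes within 100 kb except for Ndufs6 and Mrpl36 near Irx4. Among 5481 coding genes with at most 2 others that close, 43.9% had 0 regions, 24.9% had 2 or more, 3.34% had 4 or more and 1.37% had 5 or more.

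**Figure D1:**
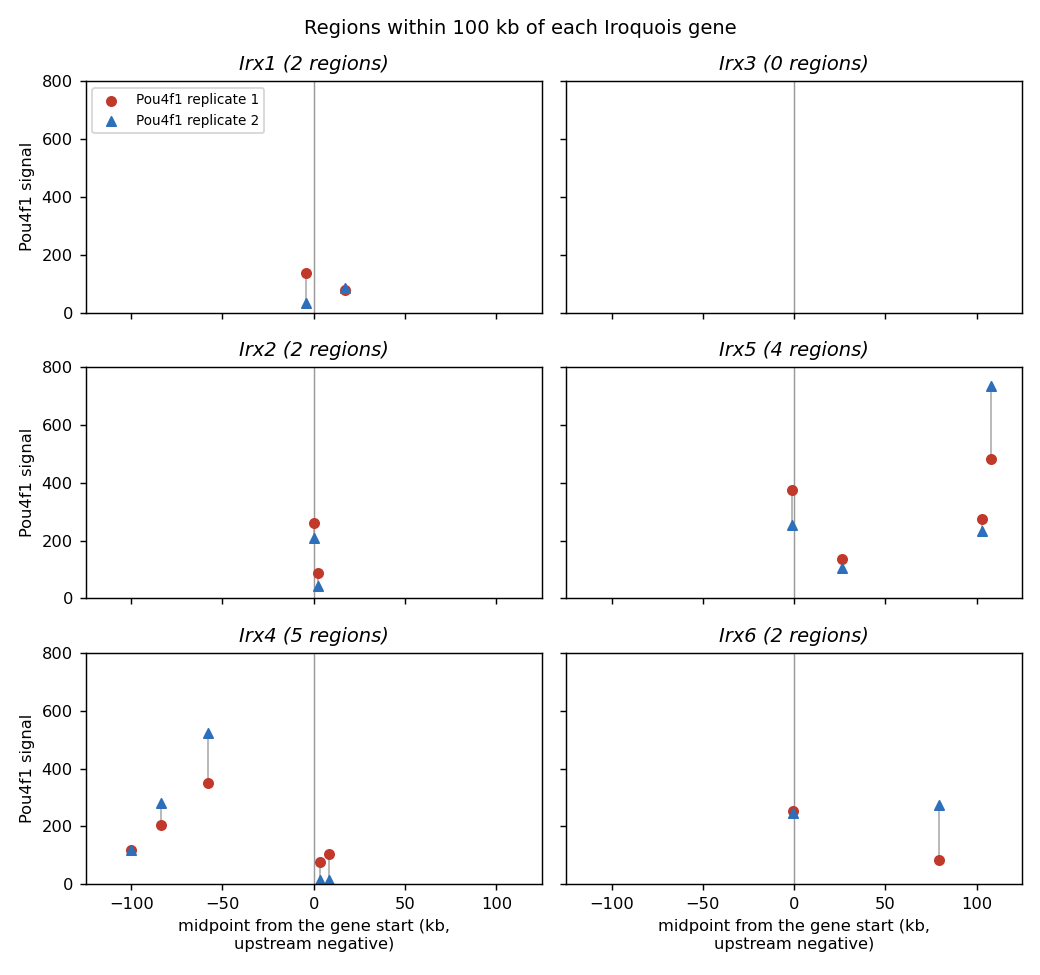
Signal of each region in Pou4f1 replicate 1 (circles) and replicate 2 (triangles), in signal units, against the distance of its midpoint from the gene start (kb, upstream negative), 1 panel for each Iroquois gene. Irx1 and Irx2 have regions in or near the gene, Irx4, Irx5 and Irx6 also have distant ones, and Irx3 has none within 100 kb.

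Irx1 (ENSMUSG00000060969.9, chr13:71957921-71963723, minus strand) had a pair of weak regions. The region at chr13:71967476-71968357, intergenic and 4.19 kb upstream of the start, had 136 signal units in Pou4f1 replicate 1, 32.9 in replicate 2, 27.7 in IgG and 31.8 in Negative8. The second Pou4f1 library was thus barely above the IgG libraries, and it held 2.97 pairs against 2 and 1.97. The other region, at chr13:71946135-71946761 and 11.2 kb beyond the gene, lies in an intron of the long non-coding RNA Gm40999. Its values were 78.6 and 84.5 with Pou4f1 and 0 and 50.3 with IgG, so the groups did not overlap but 1 IgG library came close. By mean Pou4f1 signal they ranked 7244 and 7325 of 8038, where rank 1 is the highest. In limma the Pou4f1 minus IgG differences on log2(signal + 1) were 1.16 ± 0.88 (SE) at the upstream region, with an adjusted p of 0.281, and 3.53 ± 2.27 at the downstream one, with an adjusted p of 0.218. Neither passed the threshold of 0.05. The downstream difference depended on the IgG library, at 6.37 without the one named Negative8 and 0.68 without the one named IgG.

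Irx2 (ENSMUSG00000001504.10, chr13:72628820-72634198, plus strand) had both of its regions in the gene. The region at chr13:72628009-72629567 spans the start, with exon 1, and also the start of the lncRNA Gm20554. It had 259 and 208 signal units with Pou4f1 against 15.4 and 27.1 with IgG, and the lowest Pou4f1 value was well above both IgG values. The difference was 3.44 ± 0.50 (SE) on the log2 scale, with an adjusted p of 0.0146 in limma. That call was lost without Pou4f1 replicate 1 (adjusted p 0.152) and without replicate 2 (0.133). Of the RefSeq promoter table, 3 Iroquois genes were found (Irx2, Irx3 and Irx4), and the promoter of Irx2 is the one of these that a region overlaps. It is shown because the region lies over it. Its bases, from 250 before to 50 after the RefSeq start, are chr13:72628570-72628869 on the plus strand of GRCm38.p6. Their GC content was 69.0%, where the median over 32851 RefSeq promoters was 52.7%.
Irx2 promoter: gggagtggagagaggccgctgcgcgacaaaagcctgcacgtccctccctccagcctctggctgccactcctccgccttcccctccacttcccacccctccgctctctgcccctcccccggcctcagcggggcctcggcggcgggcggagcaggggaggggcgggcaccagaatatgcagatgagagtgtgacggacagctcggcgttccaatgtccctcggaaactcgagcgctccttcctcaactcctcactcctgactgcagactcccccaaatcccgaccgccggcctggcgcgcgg

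The other Irx2 region, at chr13:72630690-72631941, covers exons 2 and 3 with 972 bp of coding sequence. It was weak, at 89.4 and 44.6 with Pou4f1, and both IgG libraries were at 0. It ranked 7695 by signal, yet its difference of 6.0 ± 0.54 (SE) passed, with an adjusted p of 0.00495. Among all regions with both IgG libraries at 0, 99.7% of 1835 passed, against 39.4% of 3516 with 1 at 0 and 74.1% of 2687 with neither at 0. The share that passed was thus lowest where 1 IgG library was at 0 and the other was not.

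Irx4 (ENSMUSG00000021604.15, chr13:73260479-73269608, plus strand), which in retina is known from work on ganglion cell axons, had a row of 3 upstream regions and 2 in the gene. The strongest was at chr13:73202193-73203228, 57.8 kb upstream, with 351 and 524 signal units with Pou4f1 and 0 and 33.7 with IgG. It ranked 547 of 8038, above 93.2% of regions. The difference was 6.19 ± 2.06 (SE) and its adjusted p of 0.068 missed the threshold, and the IgG libraries were far apart on the log scale. At 83.8 kb upstream, chr13:73175846-73177555 had 205 and 282 against 7.13 and 31.5. That is a difference of 3.89 ± 0.89 with an adjusted p of 0.0363 in limma. It was the only Irx4 region of the 5 to pass, where 64.8% of all regions did. This call was lost in 6 of 11 alternatives, with an adjusted p of 0.0603 at a pseudocount of 0.1 and 0.093 with the IgG libraries taken as 2 times shallower. At 100.4 kb upstream, chr13:73159500-73160744 had 117 in each Pou4f1 library and 0 and 11.4 with IgG, with an adjusted p of 0.0545. At a pseudocount of 10, where 92.6% of all regions passed, that region and the one at 57.8 kb had adjusted p-values of 0.00509 and 0.00772 in limma. With the spread fitted as a trend on level they were 0.0498 and 0.0625. The differences of these 2 regions were 3.25 and 3.63 without the library named IgG, and 6.89 and 8.75 without Negative8.

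These 3 regions are intergenic, and each held higher signal than the Irx4 regions inside the gene. In the intron, 3.63 kb from the start, chr13:73263481-73264739 had 78.4 and 15.5 with Pou4f1 and 0 and 11.3 with IgG. In exon 6, with 806 bp of coding sequence, chr13:73268202-73269094 had 104 and 15.3 with Pou4f1 and 20.1 and 15.9 with IgG. This was the only one of the 15 in which the groups overlapped, since the second Pou4f1 library fell below both IgG libraries. The second Pou4f1 library held 2 and 1.4 pairs at these regions, and the adjusted p-values were 0.147 and 0.390. The difference at the intron region was 3.37, and it was 1.56 without the library named IgG and 5.18 without Negative8.

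A pair of the upstream Irx4 regions hold the octamer ATGCAAAT, a sequence that POU-domain proteins bind. The sites are shown with 25 bases on either side and the octamer in capitals, on the plus strand, at chr13:73175893-73175950 and chr13:73202194-73202251. Both sites lie at the upstream edge of their region rather than at its centre. The third line is a stretch 5 bp from the centre of the region 57.8 kb upstream, chr13:73202676-73202735 on the minus strand, with a match in capitals to the POU4 consensus with 1 mismatch allowed.
Irx4 83.8 kb upstream, octamer: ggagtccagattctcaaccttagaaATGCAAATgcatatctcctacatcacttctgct
Irx4 57.8 kb upstream, octamer: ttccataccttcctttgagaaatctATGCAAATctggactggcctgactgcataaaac
Irx4 57.8 kb upstream, near centre: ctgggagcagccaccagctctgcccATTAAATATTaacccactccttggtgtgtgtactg

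Irx3 (ENSMUSG00000031734.13, chr8:91798525-91802067, minus strand) had 0 regions. The nearest was 133 kb beyond it, at chr8:91664769-91665488 in an intron of Fto, a gene whose introns are known for elements that contact Irx3. It had 235 and 611 signal units with Pou4f1 against 2.33 and 0 with IgG. On the other side, 172.1 kb upstream, chr8:91973344-91974946 had 158 and 261 against 0 and 0.610. An absent region says only that no region was called, since the table holds no values outside called regions.

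Irx5 (ENSMUSG00000031737.11, chr8:92357625-92376286, plus strand), needed for some cone bipolar cells, had 4 regions. All 4 passed, where 64.8% of all regions did. The region at chr8:92464951-92465722, 107.7 kb from the start, was the strongest of the 15. It had 483 signal units in Pou4f1 replicate 1 and 734 in replicate 2, against 15.3 and 0 with IgG, and ranked 171 of 8038. Its centre is 431 bp from the start of the lincRNA Gm45336. The difference was 7.21 ± 1.65 (SE), with an adjusted p of 0.0363. It passed in 5 of 11 alternatives, and the call was lost at a pseudocount of 0.1 (adjusted p 0.111), with the IgG libraries taken as 2 times shallower (0.0886) and without either Pou4f1 library (0.308 and 0.303).

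Next to it, at 103.0 kb, chr8:92459939-92461369 had 275 and 232 against 8.26 and 8.70. The libraries of each group were close together there, and the difference was 4.74 ± 0.39 with an adjusted p of 0.00396. At chr8:92383587-92384469, 26.4 kb from the start and 7.30 kb beyond the gene, the values were 137 and 107 against 0 and 0, with a difference of 6.93 ± 0.40 and an adjusted p of 0.00222. The region closest to Irx5, chr8:92355611-92356759, lies 1.44 kb upstream over the start of Crnde, a long non-coding RNA read in the opposite direction. It had 376 and 255 against 19.2 and 4.49, a difference of 4.88 ± 0.86, with an adjusted p of 0.0220. It passed in 6 of 11 alternatives and not without either Pou4f1 library (0.258 and 0.224).

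Sequence from the distant pair at Irx5 is shown because one is the strongest of the 15 and the other the only one of the 15 with the POU4 consensus. The consensus, ATNAATAATT or ATNAATTATT on either strand, is in capitals with 25 bases on each side, at chr8:92460515-92460574 on the minus strand, 110 bp from the region's centre. A match with 1 mismatch allowed follows, at chr8:92460589-92460648 on the plus strand. Then come the central 150 bases of the stronger region, chr8:92465261-92465410 on the plus strand, with its octamer in capitals, 11 bp from the centre.
Irx5 103.0 kb, POU4 consensus: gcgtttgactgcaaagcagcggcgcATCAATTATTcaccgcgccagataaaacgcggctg
Irx5 103.0 kb, 1 mismatch: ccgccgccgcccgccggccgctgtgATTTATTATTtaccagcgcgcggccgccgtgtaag
Irx5 107.7 kb, centre: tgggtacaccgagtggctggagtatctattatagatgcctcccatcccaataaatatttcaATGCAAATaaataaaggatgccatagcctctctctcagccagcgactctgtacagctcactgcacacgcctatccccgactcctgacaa

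Irx6 (ENSMUSG00000031738.14, chr8:92674288-92680956, plus strand), also a gene of bipolar cells, had 2 regions. Both passed, where 64.8% of all regions did, and 99.7% of those with both IgG libraries at 0, as here. The one just upstream, chr8:92673183-92674038, had 252 and 247 signal units with Pou4f1 and 0 and 0 with IgG. Its difference of 7.97 ± 0.37 (SE) was the largest of the 15 on this scale, with an adjusted p of 0.00222 in limma. With IgG at 0 that size depends on the pseudocount. At a pseudocount of 10 it was 4.70, below the 5.25 of Irx5 at 107.7 kb. The other Irx6 region, at chr8:92752895-92754092 and 79.2 kb from the start, had 82.7 and 275 with Pou4f1 and 0 and 0 with IgG. Its difference was 7.25 ± 0.78, with an adjusted p of 0.00740. The Pou4f1 libraries differed 3.33-fold there, so its level is uncertain although every Pou4f1 value was above every IgG value.

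**Figure D2:**
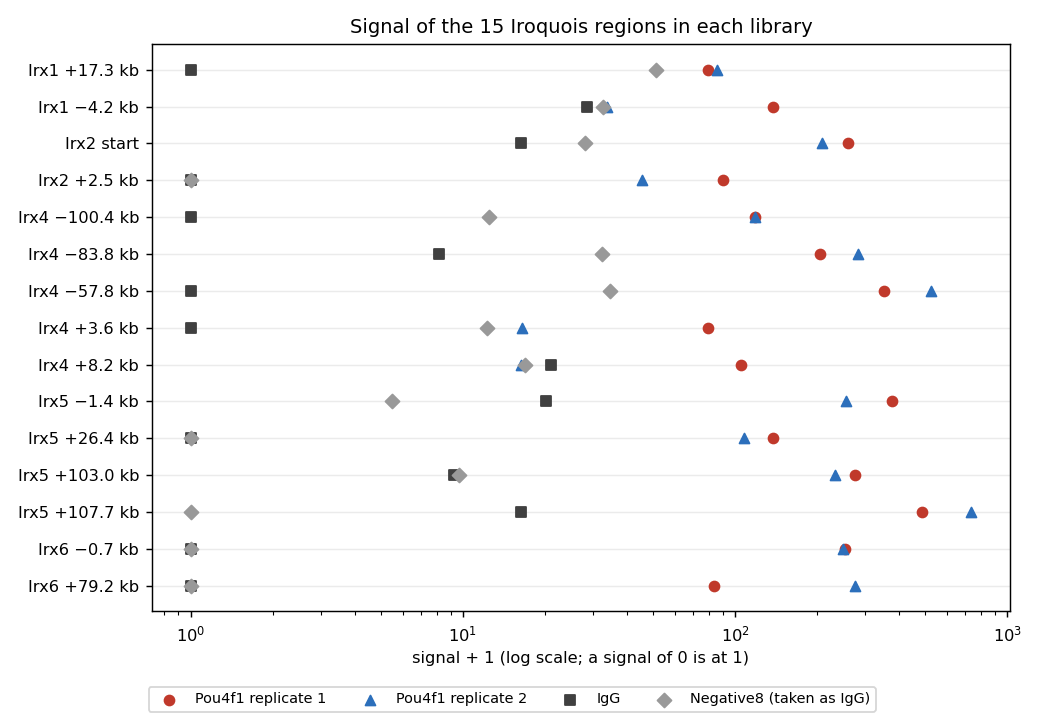
Signal + 1 of each Iroquois region (signal units, log axis) in the 2 Pou4f1 and 2 IgG libraries, 1 point for each library. The Pou4f1 points lie above the IgG points at every region except the one in exon 6 of Irx4, 8.17 kb from its start.

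Across the 15 regions, 9 were higher with Pou4f1 than with IgG in limma at an adjusted p under 0.05, which is 60.0%, where 64.8% of all 8038 regions were. At an unadjusted p under 0.05 in limma there were 10 of the 15, where 6135 of all 8038 regions reached that p. The groups did not overlap in 14 of 15, where 96.5% of all regions were apart. The median difference was 4.88 on the log2 scale against 5.22 over all regions. The regions were called by the authors on Pou4f1 signal with IgG as control, so an excess over IgG is in part that choice. Neither share sets the Iroquois regions apart from the rest of the table. All 15 have a summed signal of at least 50, so a filter on low values removed none.

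**Figure D3:**
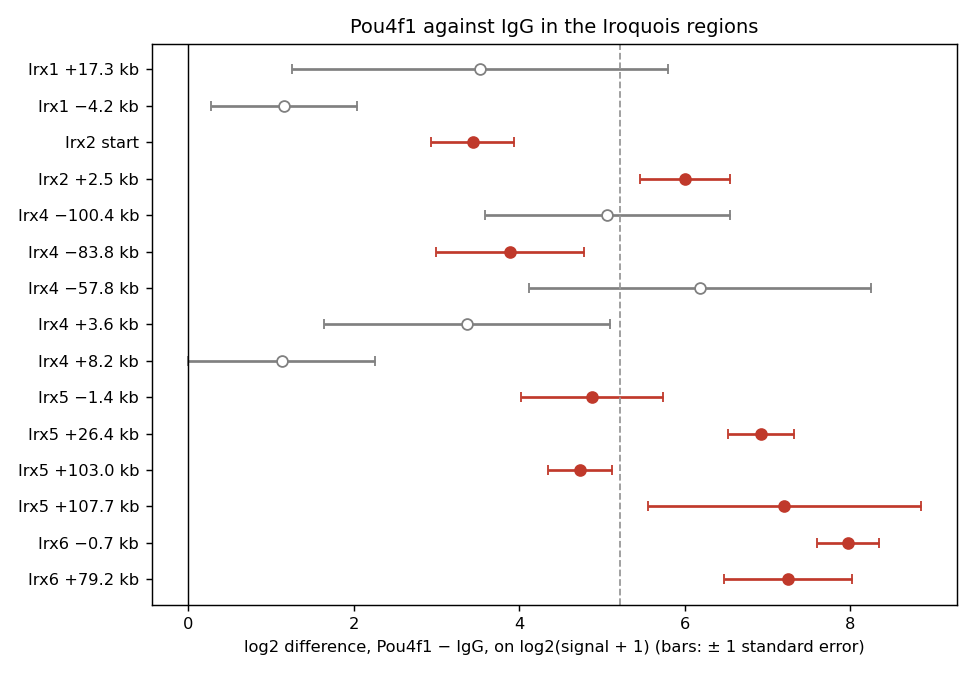
Pou4f1 minus IgG difference of each Iroquois region on log2(signal + 1) (horizontal axis, mean ± SE, 2 libraries against 2), with filled red points where the adjusted p in limma was under 0.05. The dashed line is the median over all regions, 5.22, and the chromosome 8 regions all have filled points.

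The clusters differed in how many regions passed, where 64.8% of all regions did. It was 6 of 6 on chromosome 8 with a median difference of 7.07, and 3 of 9 on chromosome 13 with a median of 3.53. These counts moved when single libraries were left out. A group of 1 library has no spread of its own, so such fits cannot size the contrast. With the IgG libraries taken as 2 times shallower, 4 of 6 on chromosome 8 and 2 of 9 on chromosome 13 passed, where 36.7% of all regions did. At a pseudocount of 10 it was 6 of 6 and 5 of 9, where 92.6% of all regions passed. The difference between the clusters was not tested, since regions are not replicates. On chromosome 8, 3 of 6 regions had both IgG libraries at 0, and on chromosome 13 it was 1 of 9. The part of IgG zeros in this contrast was not tested. Pou4f1 signal was also higher on chromosome 8, where the median region was above 73.2% of all regions by mean Pou4f1 signal, against 9.88% on chromosome 13. The limit of 100 kb left out 7 regions between Irx2 and Irx4, of which 5 (71.4%) passed, against 64.8% of all regions. Their median region was above 43.9%. Within the chromosome 8 cluster it left out a region upstream of Irx3 (above 62.8%) and one between Irx5 and Irx6 (above 91.0%), and both passed.

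By level, the Iroquois regions spread over nearly the whole table. The median region lay above 52.3% of all regions, which was 26.1% by Pou4f1 replicate 1 alone and 65.2% by replicate 2 alone. By the mean, the highest (Irx5, 107.7 kb) lay above 97.9% and the lowest (Irx4, intron) above 1.13%. In order of mean Pou4f1 signal, Irx5 at 107.7 kb led, followed by Irx4 at 57.8 kb upstream and Irx5 at 1.44 kb upstream. Their values in the 2 Pou4f1 libraries were 483 and 734, 351 and 524, and 376 and 255, so Irx4 at 57.8 kb upstream and Irx5 at 1.44 kb upstream overlapped in level.

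**Figure D4:**
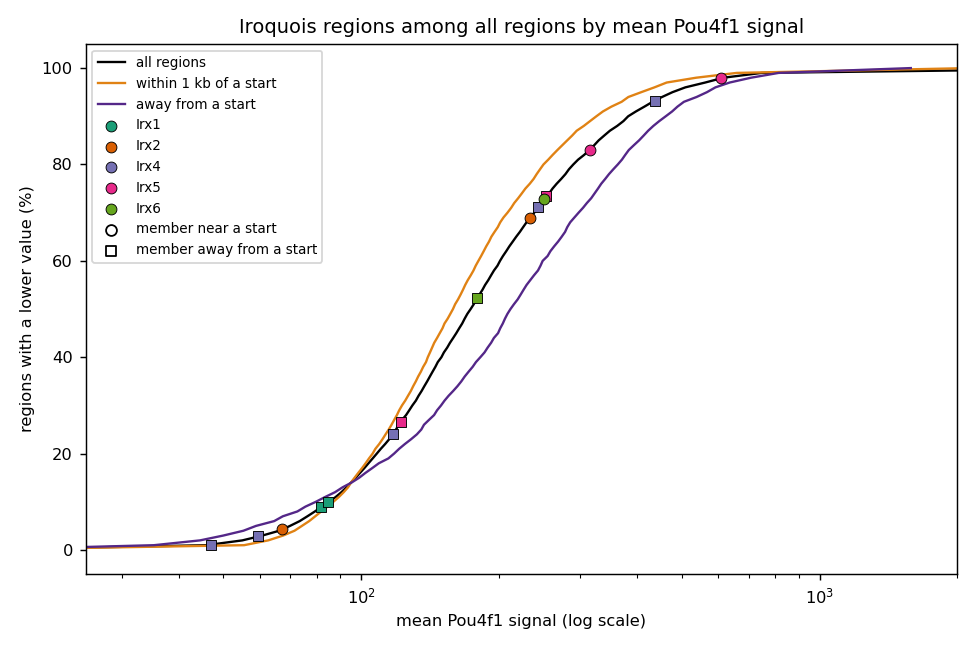
Share of all 8038 regions with a lower mean Pou4f1 signal (vertical axis, percent) against mean Pou4f1 signal (signal units, log axis), for all regions (black) and for those within 1 kb of a transcription start (orange) or away from one (purple). The 15 Iroquois regions, coloured by gene, with circles near a start and squares away from one, run from 1.13% to 97.9% on the black curve, and both Irx1 regions, the Irx4 regions inside the gene and Irx2 over exons 2 and 3 lie under 10%.

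The Pou4f1 libraries ranked the near and the distant regions differently. All 7 regions under 10 kb from the start of their gene were higher in replicate 1, and 4 of them by over 2-fold. These were the upstream Irx1 region (4.14-fold), Irx2 over exons 2 and 3 (2.0-fold), and Irx4 in the intron (5.04-fold) and in exon 6 (6.77-fold). In that order replicate 2 held 2.97, 5.71, 2 and 1.4 pairs there, so these ratios rest on few reads. Over all 8038 regions replicate 1 was higher in 5373, and by over 2-fold in 15.3%. Of the 8 regions over 10 kb away, 5 were higher in replicate 2 and 0 were over 2-fold higher in replicate 1. Sorted instead by distance from the start of any gene, replicate 2 was higher in 1 of the 5 Iroquois regions within 1 kb, where 16.6% of all such regions were, and in 4 of the 10 farther away, where 62.8% of all such regions were. Of the 4 regions over 2-fold higher in replicate 1, 3 were among these 10 (30%), where 7.84% of all regions away from a start were. The split at 10 kb was chosen after the values were seen. Median GC content was 61.7% in the 7 regions under 10 kb from their gene and 51.6% in the 8 farther away. The part of GC content, depth or the library in this pattern was not tested.

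**Figure D5:**
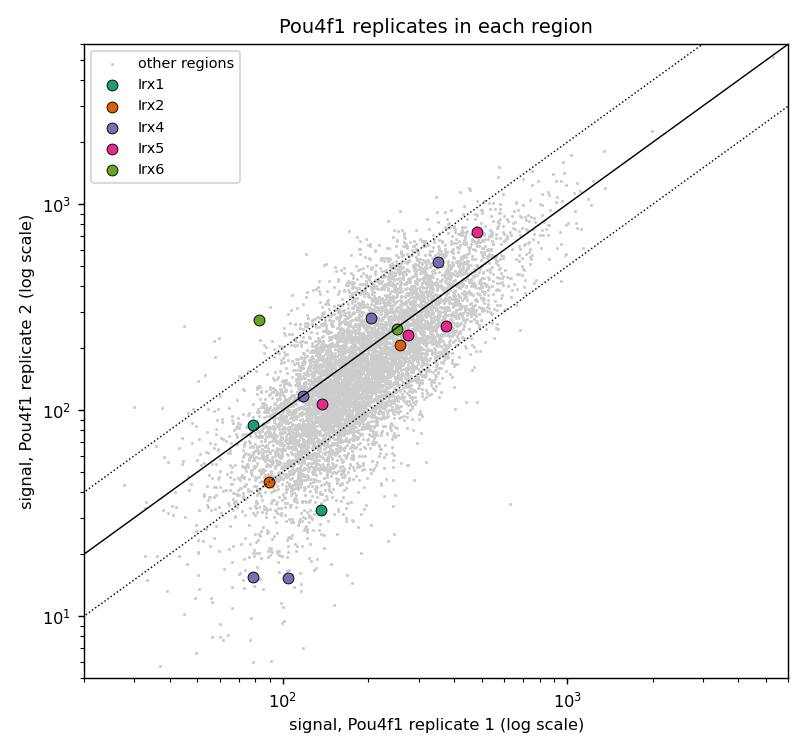
Signal in Pou4f1 replicate 2 against replicate 1 (signal units, log axes), Iroquois regions in colour over all other regions in grey, with the line of equal signal and dotted lines at a 2-fold difference. The 18 regions at 0 in replicate 2 are not drawn, and the Iroquois regions near a gene fall below the line of equal signal while 5 of the distant ones lie above it.

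In place along the genome the Iroquois regions were more often far from a transcription start than the table as a whole. Of 15, 5 (33.3%) had their centre within 1 kb of an annotated start of any gene, against 64.1% of all regions, and 7 (46.7%) were intergenic, against 15.2%. The other 3 lay in introns (2) and an exon (1). Of the 5 near a start, all 5 passed the test, and of the 10 farther away, 4 passed, where 62.1% and 69.7% of all regions of these kinds did. Median GC content was 55.0% over the Iroquois regions and 59.6% over all regions, and median length was 1149 bp and 995 bp.

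In the central 200 bp, 0 of 15 held the POU4 consensus, where 4.38% of all regions did, and with 1 mismatch allowed 3 of 15 did, where 13.4% of all regions did. In the whole region 1 of 15 held the consensus (Irx5, 103.0 kb) against 11.1% of all regions, and 7 of 15 (46.7%) held it with 1 mismatch allowed, against 34.4%. Sorted by place, 6 of the 10 away from a start held it with 1 mismatch allowed, against 69.7% of all such regions. Near a start it was 1 of 5, against 14.7%. The consensus itself was in 1 of the 10, against 26.1%. With 1 mismatch allowed the central 200 bp held it in 2 of the 10 and 1 of the 5, against 32.7% and 2.58%. The octamer ATGCAAAT on either strand stood in 3 of 15 whole regions, the 3 shown here, against 3.64% of all regions. The homeodomain core TAATTA, which many homeodomain factors bind, was in 2 of 15, upstream of Irx1 and in the Irx4 intron, against 14.1%. Both lie away from a start, where 27.5% of all regions held it. None of these motifs was in the RefSeq promoters of Irx2, Irx3 or Irx4, and over all 32851 promoters 0.868% held the POU4 consensus. A match is a run of letters and not evidence of binding.

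The limit of 100 kb decided some of this. Just inside it was Irx4 at 100.4 kb from the start, 99.7 kb beyond the gene, with 117 and 117 signal units with Pou4f1. Just outside it was a region between Irx5 and Irx6, chr8:92569637-92570429, 103.9 kb beyond Irx6, with 426 and 369 with Pou4f1 and 14.8 and 0 with IgG. A limit of 50 kb would have kept 9 regions and one of 10 kb would have kept 8, while the whole span of both clusters with 100 kb on either side held 24.

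By the same rule, the 12 other TALE homeobox genes had 32 regions. These genes encode partners and relatives of homeodomain proteins, with Meis and Pknox proteins binding DNA together with Hox factors and Tgif proteins acting mostly as repressors. Of the 32 regions 25 passed (78.1%), where 64.8% of all regions did. All 32 had groups that did not overlap, where 96.5% of all regions were apart. Pknox2 had 8 regions, Meis3 and Pknox1 had 4 each, and Mkx, Meis1, Meis2, Tgif1 and Tgif2 had 0. Of the 32, 21 (65.6%) lay within 1 kb of a start and 1 was intergenic, where the Iroquois regions had 5 and 7. Other coding genes within 100 kb numbered 0 to 12 at the TALE genes, with 9 at Meis3, 6 at Pknox1 and 4 at Pknox2. At the Iroquois genes they numbered 0 to 2. The part of such neighbours in this contrast was not tested.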

How the data were processed

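CUT&Tag was run on pools of 4 E16.5 wild-type mouse retinas. Per the labels and the study's methods, the authors aligned paired-end reads to mm10 with Bowtie2 2.4.5 and used SEACR (relaxed mode, with IgG as control) to call regions. The deposited table gives a signal value for each region in 2 Pou4f1 and 2 IgG libraries. One of the latter columns is named Negative8 and was taken as IgG, the only negative control the methods name. How the signal was scaled, and whether duplicates were removed, is not stated in the sources used here. Signal is not a count, so no count model was used.

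Pou4f1 was compared with IgG on log2(signal + 1) by limma 3.58.1 (R 4.3.3), fitted on all 8038 regions with Benjamini-Hochberg adjustment and a threshold of 0.05, and tested on simulated data. With 2 libraries against 2 an exact two-sided permutation test cannot go below 0.333. The p-values measure the spread between these libraries, which may be technical. Distances run from region centre to gene start. Motifs and GC content were read from the mm10 genome with Python 3.11.15. Named are all Iroquois regions, the genes they touch and some of the 12 TALE genes, of which the counts of 1 are not reported here. The genes, lists and rules were chosen with earlier results of these data known, and the flanks of octamer sites were added after their values were seen. Tested alternatives were other pseudocounts, IgG scalings, filters and leaving out each library.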

Additional observations from a re-analysis of the deposited data

How the results depend on the processing

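The 9 Iroquois regions that passed became 5 when the IgG libraries were taken as 4 times shallower and 4 when column totals were used as library sizes, which brings the median of all regions from 5.22 to 2.74. The same settings gave 2152 and 1821 of all regions (5205 as reported, and 2949 with IgG taken as 2 times shallower) and 12 and 9 of the TALE regions (25 as reported). With 1 library left out, the spread of a lone library was assumed to be like that of the others. The count then ranged from 5 (without either Pou4f1 library) to 13 (without Negative8, and 12 without IgG) for the Iroquois regions, from 2360 to 7710 for all regions and from 12 to 32 for the TALE regions. Irx2 over exons 2 and 3, Irx5 at 26.4 kb and both Irx6 regions passed under all 11 alternatives. Their IgG values are 0, so scaling the IgG libraries alone cannot change their differences. Their adjusted p-values in limma still moved, at Irx6 79.2 kb from 0.00740 to 0.0126 with IgG 4 times shallower. Irx5 at 103.0 kb lost its call under column totals alone (0.84, adjusted p 0.354). With IgG 4 times shallower the direction turned at the upstream Irx1 region (-0.81) and in Irx4 exon 6 (-0.81). With column totals it turned at the upstream Irx1 region (-2.83), the Irx2 start (-0.54), Irx4 at 83.8 kb upstream (-0.0464) and Irx4 exon 6 (-2.80), and without Pou4f1 replicate 1 in Irx4 exon 6 (-0.21, against 2.47 without replicate 2). The true scaling of the libraries is not known. The column totals are sums over regions called on Pou4f1 signal, 1.76e+06 and 1.66e+06 with Pou4f1 and 8.82e+04 and 1.21e+05 with IgG. Dividing by them takes out excess over IgG together with any difference in depth. Calls lost or turned under column totals therefore cannot show the effect of depth alone.

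The number of regions was 9 at a limit of 50 kb, 8 at 10 kb and 24 over the whole span of the clusters. The median position of 52.3% was 26.1% and 65.2% by Pou4f1 replicate 1 or 2 alone. It fell to 18.2% over the regions within 10 kb and 20.5% over those away from a start, among others of that kind. The POU4 consensus was in 0 of 15 central windows of 200 bp, in 1 with 1000 bp and in 1 whole region. With 1 mismatch allowed, 3 central windows of 200 bp held it. Of the 9 regions of the clusters beyond 100 kb, 4 held the consensus in the whole region and 0 in the central 200 bp. That set was added after seeing the data. No paired analysis was possible because the IgG columns carry no replicate numbers.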

Other observations

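The stretch between Irx2 and Irx4 held 7 regions beyond 100 kb of either gene. The strongest, chr13:73008621-73010246, lies 251.0 kb upstream of Irx4 in intergenic sequence and had 496 and 811 signal units with Pou4f1 and 7.27 and 5.03 with IgG. It ranked 134 of 8038, above every region within 100 kb of an Iroquois gene, and its log2 difference was 6.49 ± 0.50 (SE) with an adjusted p of 0.00352 in limma. It holds the POU4 consensus at 2 sites, shown with 25 bases on either side and the consensus in capitals, at chr13:73009070-73009129 on the plus strand and chr13:73009202-73009261 on the minus strand.
Irx4 251.0 kb upstream, site 1: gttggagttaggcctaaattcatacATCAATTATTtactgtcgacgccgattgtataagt
Irx4 251.0 kb upstream, site 2: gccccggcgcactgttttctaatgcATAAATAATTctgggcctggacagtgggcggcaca

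Of the other regions in that stretch, 3 also hold the consensus, so that it is present in 4 of 7 when the whole region is searched. Away from a start it is in 3 of 6, where 26.1% of all such regions hold it, and the other, at a start, is of a kind of which 2.70% hold it. These are the region at the start of the lincRNA D730050B12Rik, chr13:72815532-72817770, with 324 and 421 with Pou4f1 and 5.45 and 0 with IgG, a region 224.7 kb from the Irx2 start, with 205 and 380 against 0 and 0, and a region 263.4 kb upstream of Irx4, with 109 and 208 against 8.06 and 0. These regions were picked out after their values were seen, and the share was not tested.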
